A study of Homo sapiens with 12 samples.

Results

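Transcripts that set how a cell takes up, stores and releases iron, and how its membranes resist iron-driven lipid oxidation, were followed in SKOV3 and SKOV3/DDP cells with and without paeonol (PAE). The members were the rows whose gene name was FTL, FTH1, NCOA4, TFRC, SLC40A1, IREB2, ACSL4, LPCAT3, GPX4 or AIFM2. Each symbol matched 1 row, which gave 10 of the 46350 named genes. Expression had been measured by RNA sequencing of 12 libraries, 3 in each of 4 groups. The groups were untreated SKOV3, SKOV3 with PAE (SKOV3_PAE), untreated SKOV3/DDP, and SKOV3/DDP with PAE (SKOV3/DDP_PAE). SKOV3 is an established human ovarian cancer line that the labels give as sensitive to cisplatin. The paper states that SKOV3/DDP was derived from SKOV3 and is stably chemoresistant. That origin was not tested here, and the marker values given below set the lines apart. SKOV3/DDP is the only resistant line in these data. PAE is a small phenolic compound of peony root bark, and neither its dose nor the time of exposure is given in the sources used here. The design text mentions biological as well as experimental triplicates and does not say which of these the 3 libraries of a group are. The p-values therefore measure the spread between these libraries, and it is not known how much of it is technical.

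Cells take up iron bound to transferrin through the transferrin receptor (TFRC), store the excess in a shell of ferritin heavy (FTH1) and light (FTL) chains, and export it through ferroportin (SLC40A1). NCOA4 carries ferritin to the lysosome, where its iron is set free. When iron is scarce, iron regulatory proteins, of which IREB2 is one, bind hairpins in messenger RNA, and this blocks translation of ferritin and stabilizes the TFRC message. Ferroptosis is a cell death by iron-dependent oxidation of membrane lipids. ACSL4 and LPCAT3 place polyunsaturated fatty acids into phospholipids, which makes membranes easier to oxidize, whereas GPX4 reduces the lipid peroxides with glutathione and AIFM2 (FSP1) keeps ubiquinone reduced as a second defence.

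Short stretches of 2 members are shown because they carry the letters through which iron and oxygen sensing are known to reach these genes. In each, the motif is in capitals, and the sequence is that of RefSeq (GRCh38.p14) at chr19:48965329-48965358 on the plus strand for FTL and at chr3:196082161-196082190 on the minus strand for TFRC.
FTL, start of the transcript: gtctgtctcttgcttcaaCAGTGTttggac
TFRC, before the start: cctcgcgagcgtACGTGcctcaggaagtga
The capitals of FTL match CAGTGN, the loop of the iron-responsive hairpin, 38 bases after the start. Those of TFRC match ACGTG, the core of hypoxia-response elements, 88 bases before the start. RefSeq windows of 250 bases before to 50 bases after the start were matched for 9 members, and FTH1 was not among them. On the coding strand of the 50 bases after the start, CAGTGN was found in 2 of the 9 members, FTL and 1 of the alternative starts of NCOA4, and in 6.36% of all 35116 windows. On either strand of the whole window, ACGTG was found in 3 members (TFRC, GPX4 and FTL) and in 21.4% of windows. TGACNNNGC, the core of antioxidant response elements, was found in 2 members (NCOA4 and AIFM2) and in 13.3% of windows. In the NCOA4 window it overlapped the CAGTGN match.

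Total counts lay between 14610008 and 18263479 per library. The 3 untreated SKOV3 libraries stood apart from the other 9. They held counts for 17951 to 18240 genes, against 21469 to 23194 in the others. The deviation of a gene from its mean log2 CPM over the 12 libraries was compared with its GC content. Spearman's rho across genes was 0.673 to 0.680 in those 3 libraries, and -0.525 to -0.319 in the others. Deviations from a common mean balance out, so the negative values alone do not show an opposite trend in the others. Since the untreated SKOV3 libraries stood apart, results that use them are given as normalized. They are given again after a smooth trend on GC content and transcript length had been removed from each library. The marker lists set the lines apart: all 5 intestinal epithelial markers exceeded 1 CPM in SKOV3/DDP, with a summed level of 531 to 576 CPM (163 to 249 CPM with PAE), whereas 0 of 5 did so in SKOV3 (0.254 to 0.887 CPM). Of the 5 epithelial markers, KRT7 averaged 3607 CPM in untreated SKOV3 and 1.22 CPM in untreated SKOV3/DDP, whereas EPCAM (1.26 and 289 CPM), CDH1 (7.63 and 442 CPM), KRT8 (3311 and 5279 CPM) and KRT18 (1498 and 4190 CPM) were higher in SKOV3/DDP. The ovarian carcinoma list summed to 464 to 510 CPM in SKOV3 and 459 to 510 CPM in SKOV3/DDP. Within it PAX8 (29.7 and 4.13 CPM), ERBB2 (306 and 96.5 CPM) and MUC16 (2.09 and 0.390 CPM) were lower in SKOV3/DDP, MSLN (149 and 388 CPM) was higher, and WT1 was at or near 0 in both. The leukocyte list summed to 62.9 to 72.5 CPM in SKOV3, all of it CD14, to 22.7 to 39.3 CPM in SKOV3_PAE and to 3.12 CPM or less in the SKOV3/DDP groups, with PTPRC and CD3E at or near 0. The 3 endothelial markers summed to 0.343 to 10.6 CPM over the 12 libraries, with CDH5 at 0, and the 4 fibroblast markers to 0.330 to 17.2 CPM, with COL1A2 at 0. Mitochondrial genes took 1.29% to 2.44% of counts in SKOV3 with or without PAE, 8.66% to 11.2% in SKOV3/DDP and 3.93% to 8.67% in SKOV3/DDP_PAE. The part of these differences in the values that follow was not tested. Among the intestinal markers, CDX2 averaged 0 CPM in untreated SKOV3 and 163 CPM in untreated SKOV3/DDP, and CDH17 averaged 0 and 339 CPM. Whether SKOV3/DDP derives from SKOV3 was not tested, so differences between the lines are not read as changes from a parent line.

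**Figure D1:**
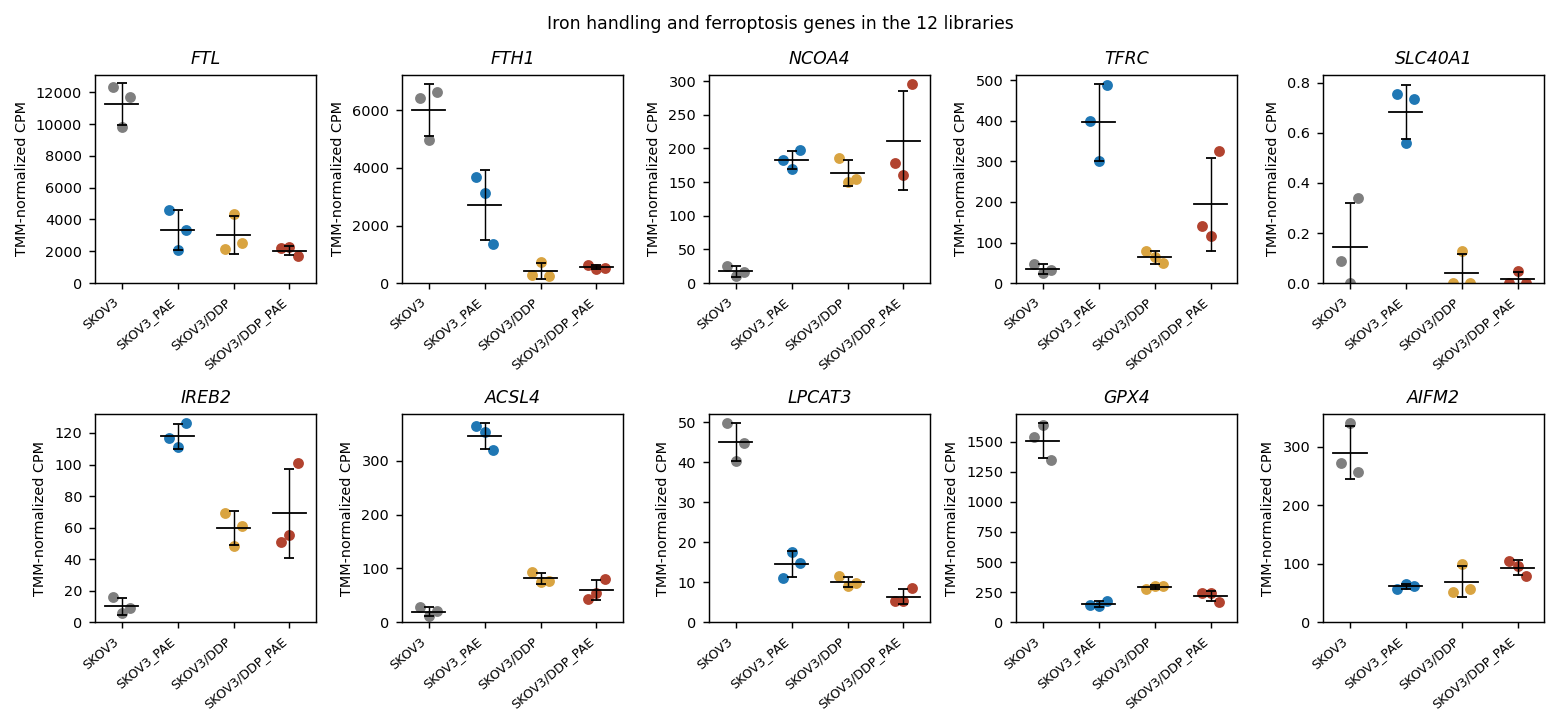
Level of each of the 10 genes in the 12 libraries, as TMM-normalized CPM (linear axes from 0). Points are libraries, horizontal bars are group means and whiskers are 1 SD (n = 3). The untreated SKOV3 libraries are the highest for FTL, FTH1, LPCAT3, GPX4 and AIFM2 and the lowest for NCOA4, TFRC, IREB2 and ACSL4.

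CPM are counts scaled to the size of a library with TMM factors, a scaling that corrects for differences in RNA composition between libraries. A gene was called changed when edgeR's quasi-likelihood test over 17133 genes gave a Benjamini-Hochberg adjusted p under 0.05. SLC40A1 had few counts and passed the filter on low counts only through SKOV3_PAE, so it is counted apart. With PAE in SKOV3, 9 of the other 9 members were called, beside 75.3% of all genes tested (4 higher beside 42.6%, and 5 lower beside 32.7%). In SKOV3/DDP 1 of the 9 was called, TFRC, beside 26.4% of all genes, and it was higher, beside 11.8%. Untreated SKOV3/DDP differed from SKOV3 in 9 of the 9, beside 81.8% of all genes (4 higher beside 45.8%, and 5 lower beside 36.0%). The PAE-treated lines differed in 6, beside 54.5% of all genes (2 higher beside 27.5%, and 4 lower beside 27.1%). The libraries of the groups compared did not overlap for 9, 3, 9 and 5 of the 9 members in these comparisons, beside 77.4%, 45.1%, 83.2% and 61.2% of all genes. The comparison of PAE in SKOV3 and that of the untreated lines share the untreated SKOV3 libraries. A share of calls near that of all genes is no result about these members.

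After the trend was removed, 5 of the 9 members were called with PAE in SKOV3, beside 50.3% of 15683 genes (3 higher beside 28.8%, and 2 lower beside 21.5%). In SKOV3/DDP 2 were called, beside 32.2% of genes (1 higher beside 15.6%, and 1 lower beside 16.6%). The untreated lines differed in 7, beside 70.2% of genes (2 higher beside 37.0%, and 5 lower beside 33.2%), and the treated lines in 7, beside 59.1% (2 higher beside 30.1%, and 5 lower beside 29%). Of the 9 members, 8 kept the direction of the PAE change in SKOV3, 8 that in SKOV3/DDP, 9 that between the treated lines, and 4 that between the untreated lines. The GC content of the members ran from 37.4% for ACSL4 to 62.5% for GPX4. NCOA4, TFRC, IREB2 and ACSL4, the members under 45% GC other than SLC40A1, had log2 fold changes above 0 with PAE in SKOV3. The 5 members over 50% GC had log2 fold changes below 0. SLC40A1 (42.4% GC) is left out of this, since it passed the filter only through SKOV3_PAE. For PAE in SKOV3, Spearman's rho between log2 fold change and GC content was -0.976 over the 10 members, SLC40A1 included. It was -0.775 over the 15683 genes with a GC value. It was -0.169 over all genes for PAE in SKOV3/DDP and -0.00755 between the treated lines. These correlations are across genes that share libraries, and genes are not independent replicates.

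**Figure D2:**
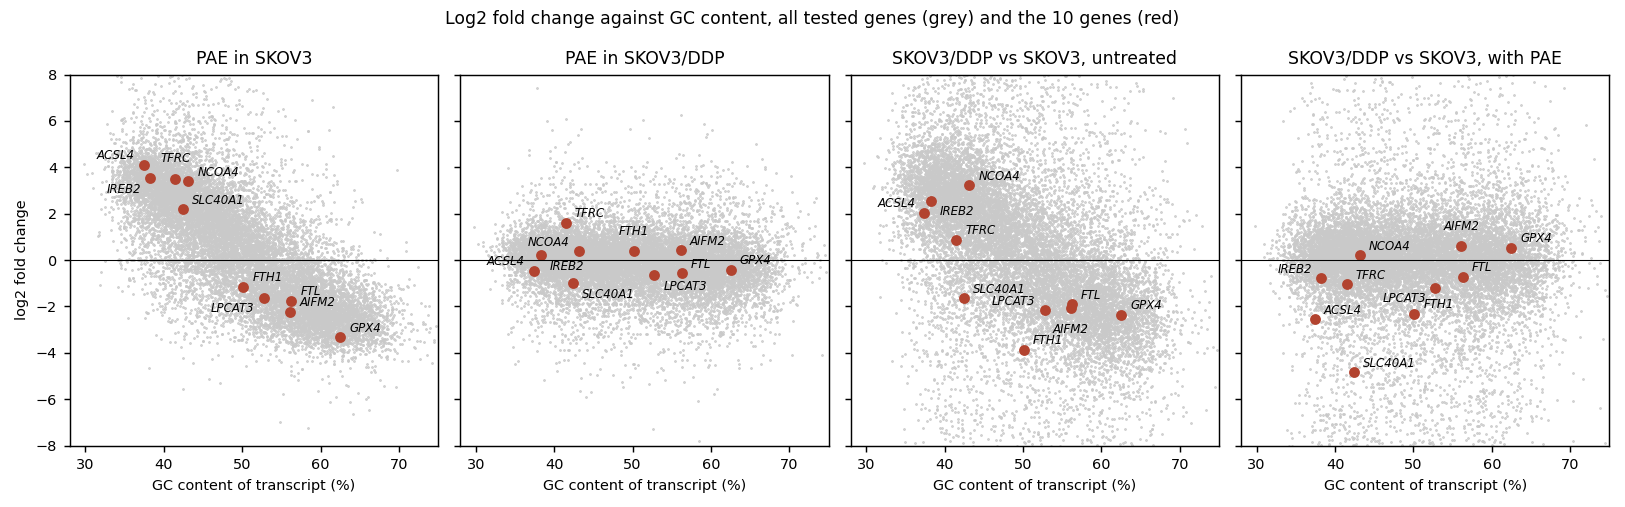
Log2 fold change in 4 comparisons against the GC content of the longest transcript, for all genes tested with a GC value (grey) and the 10 genes (red, named). Genes beyond 8 on the log2 scale or outside 28% to 75% GC are not drawn (3 to 717 per panel). The grey cloud slopes downward in both panels that use untreated SKOV3 libraries. The 10 genes follow it closely with PAE in SKOV3 (Spearman's rho -0.976) and less closely between the untreated lines (-0.697). Both values include SLC40A1, whose direction with PAE in SKOV3 is not support. Between the untreated lines, 7 of the 9 members other than SLC40A1 were called after trend removal, 2 higher and 5 lower.

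**Figure D3:**
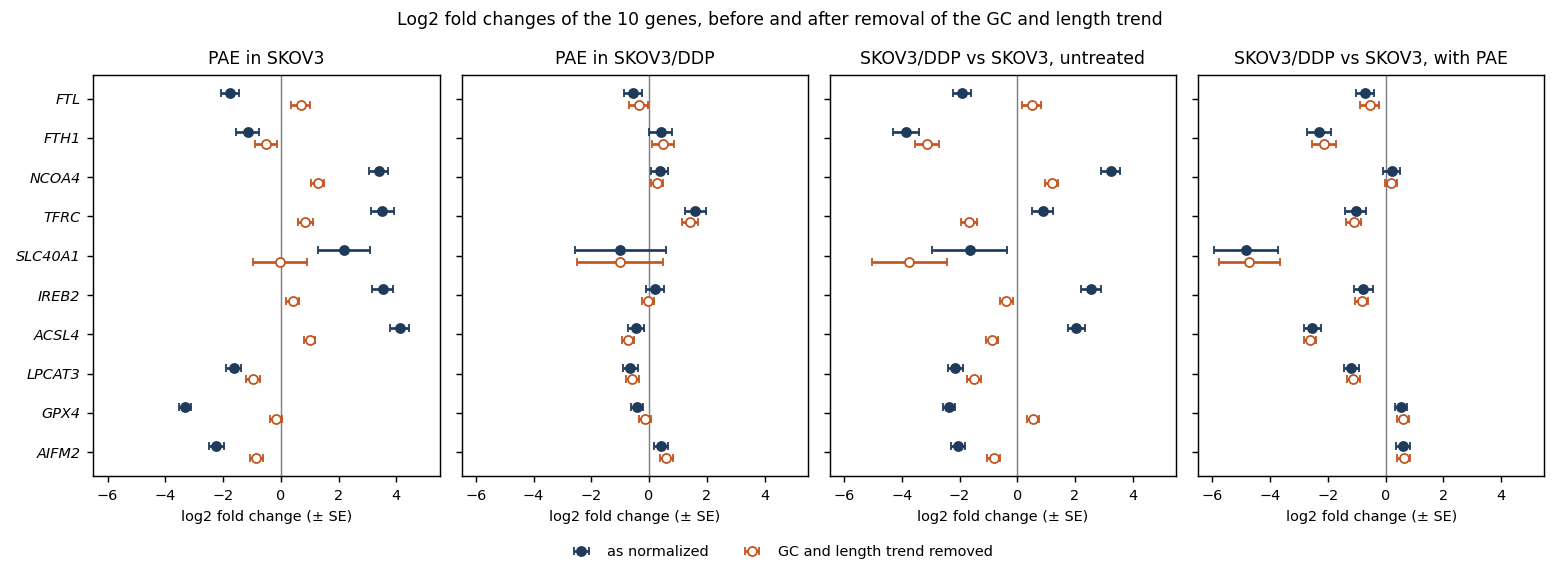
Log2 fold change of each gene with its standard error in 4 comparisons, as normalized (filled) and after removal of the GC and length trend (open). TFRC with PAE in SKOV3/DDP is at 1.60 and 1.42, and FTH1 between the untreated lines is at -3.87 and -3.14, whereas GPX4 between the untreated lines is at -2.37 and 0.56.

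Ferritin was the most abundant transcript group among the members, and its heavy chain was lower in SKOV3/DDP than in SKOV3 in both states. FTH1 (NCBI Gene 2495, chromosome 11, 61964285 to 61967634) encodes the chain that oxidizes iron for storage. It reached 6419, 4984 and 6633 CPM in SKOV3 and 3672, 3139 and 1353 CPM in SKOV3_PAE. In SKOV3/DDP it stood at 280.3, 722 and 235 CPM, and in SKOV3/DDP_PAE at 623, 487 and 522 CPM. Every SKOV3 library, treated or not, was above every SKOV3/DDP library. Without PAE, FTH1 was lower in SKOV3/DDP than in SKOV3 (log2 fold change -3.87, SE 0.44, adjusted p = 9.87e-07; -3.14 after trend removal, adjusted p = 1.52e-05). Among treated cells it was 5.00-fold lower in SKOV3/DDP (log2 -2.32, SE 0.41, adjusted p = 0.000247; -2.14 after trend removal, adjusted p = 0.000438). In SKOV3, FTH1 fell with PAE by 1.14 on the log2 scale (SE 0.40, adjusted p = 0.0171). That call rested on the settings: the adjusted p was 0.281 after trend removal, 0.52 on library size alone and 0.073 without SKOV3_PAE replicate 3 (log2 -0.82). In SKOV3/DDP the log2 fold change with PAE was 0.40 (SE 0.39, adjusted p = 0.488), and 1.08 (adjusted p = 0.0306) without SKOV3/DDP replicate 2, the library at 722 CPM.

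FTL (NCBI Gene 2512, chromosome 19, 48963941 to 48966879) encodes the chain that stabilizes the iron core. It was at 12311, 9812 and 11678 CPM in SKOV3 and at 4589, 2105 and 3342 CPM in SKOV3_PAE. In SKOV3/DDP it was at 2150, 4361 and 2512 CPM, and in SKOV3/DDP_PAE at 2190, 2248 and 1691 CPM. The untreated SKOV3 libraries were above the other 9, and the other 3 groups overlapped. As normalized, FTL fell with PAE in SKOV3 (log2 -1.75, SE 0.31, adjusted p = 0.000101) and was lower in untreated SKOV3/DDP (log2 -1.91, SE 0.31, adjusted p = 4.11e-05). Neither direction held after trend removal, with log2 fold changes of 0.69 (adjusted p = 0.0915) and 0.50 (adjusted p = 0.184). In SKOV3/DDP the log2 fold change with PAE was -0.56 (SE 0.30, adjusted p = 0.188), and between the treated lines it was -0.71 (SE 0.30, adjusted p = 0.0582). The last value passed the threshold on library size alone (adjusted p = 0.043), with DESeq2 (adjusted p = 0.0426), without a filter on low counts (adjusted p = 0.0170), with only the groups compared (adjusted p = 0.0471) and without any 1 of SKOV3_PAE replicate 2 or SKOV3/DDP replicate 1 or 2 (adjusted p of 0.0135 to 0.0496, log2 -0.97 to -0.71).

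Both chains together took 1.13% ± 0.16 (SD, n = 3) of all counts in SKOV3, 0.729% ± 0.213 in SKOV3_PAE, 0.353% ± 0.123 in SKOV3/DDP and 0.307% ± 0.047 in SKOV3/DDP_PAE. Per kilobase, the ratio of FTL to FTH1 was 1.92 ± 0.11 in SKOV3 and 1.49 ± 0.94 in SKOV3_PAE. It was 8.28 ± 2.41 in SKOV3/DDP and 3.86 ± 0.74 in SKOV3/DDP_PAE. The light chain was thus in larger excess over the heavy chain in every SKOV3/DDP library (3.30 to 10.9) than in any SKOV3 library (0.683 to 2.51), and the SKOV3/DDP libraries without PAE (6.15 to 10.9) lay above those with it (3.30 to 4.70). The exact permutation test of 3 against 3 libraries gave p = 0.1 between the lines in each state and for PAE in SKOV3/DDP, the smallest that it can give (two-sided). After trend removal the ratios were 0.705 to 0.849 in SKOV3, 0.838 to 3.74 in SKOV3_PAE, 7.95 to 13.7 in SKOV3/DDP and 4.76 to 6.55 in SKOV3/DDP_PAE, with the same separations. Processed copies of the heavy chain gene could take some of its reads: 20 loci named FTH1P were listed, 16 of them with counts, and they held 1.85% to 15.4% as many counts as FTH1 in a library. For the light chain, 10 FTLP loci held at most 0.107%. Adding these counts to FTH1 and FTL changed no direction and no call.

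**Figure D4:**
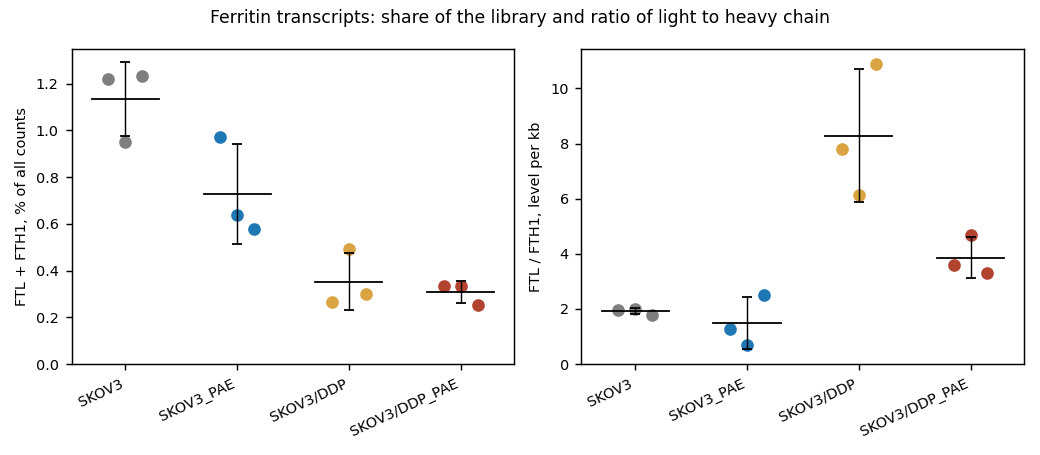
Share of all counts taken by FTL and FTH1 (left, %) and ratio of FTL to FTH1 per kilobase (right) in the 12 libraries. Points are libraries, bars are group means and whiskers 1 SD (n = 3). The SKOV3/DDP libraries have the smaller share, at 0.253% to 0.493%, and the larger ratio, at 3.30 to 10.9.

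NCOA4 (NCBI Gene 8031, chromosome 10, 46005088 to 46030623), the receptor that takes ferritin to the lysosome, was lowest in untreated SKOV3. It was at 25.5, 9.80 and 16.9 CPM there and at 183, 169.9 and 197 CPM in SKOV3_PAE. SKOV3/DDP had 185, 150.3 and 155 CPM, and SKOV3/DDP_PAE had 178, 160.0 and 296 CPM. The last 3 groups overlapped. NCOA4 rose 10.5-fold with PAE in SKOV3 (log2 3.40, SE 0.33, adjusted p = 2.12e-07) and was higher in untreated SKOV3/DDP (log2 3.23, SE 0.33, adjusted p = 2.67e-07). Both calls held at a smaller size after trend removal, with log2 fold changes of 1.28 (adjusted p = 0.000349) and 1.19 (adjusted p = 0.000289). The log2 fold change with PAE in SKOV3/DDP was 0.37 (SE 0.30, adjusted p = 0.386). For the treated lines it was 0.21 (SE 0.30, adjusted p = 0.584), and -0.11 without SKOV3/DDP_PAE replicate 3.

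TFRC (NCBI Gene 7037, chromosome 3, 196018694 to 196082123), the receptor for iron-loaded transferrin, was the member that rose with PAE in both lines. It was at 48.2, 23.6 and 32.8 CPM in SKOV3 and at 399.8, 300.4 and 489 CPM in SKOV3_PAE. In SKOV3/DDP it was at 79.6, 63.3 and 48.4 CPM, and in SKOV3/DDP_PAE at 139.6, 116 and 326 CPM. All treated libraries were above the untreated ones of their line. In SKOV3/DDP, TFRC rose 3.04-fold (log2 1.60, SE 0.37, adjusted p = 0.00635). The rise was 1.42 on the log2 scale after trend removal (adjusted p = 0.00179), and with each of the 12 libraries left out in turn it lay between 1.04 and 1.90 with an adjusted p of at most 0.0294. It was smallest without SKOV3/DDP_PAE replicate 3, the library at 326 CPM. In SKOV3, TFRC rose 11.4-fold as normalized (log2 3.51, SE 0.40, adjusted p = 1.15e-06) and by 0.85 on the log2 scale after trend removal (SE 0.27, adjusted p = 0.0185).

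Between the lines, TFRC depended on the processing. As normalized it was higher in untreated SKOV3/DDP (log2 0.87, SE 0.37, adjusted p = 0.0398), and after trend removal it was lower (log2 -1.68, SE 0.28, adjusted p = 0.000106). The first call was also lost with DESeq2 (adjusted p = 0.11) and without any 1 of SKOV3 replicate 2 or 3, SKOV3_PAE replicate 1 or 2, or SKOV3/DDP replicate 1 or 2 (log2 0.65 to 0.89, adjusted p of 0.0501 to 0.150). With both lines treated, TFRC was lower in SKOV3/DDP (log2 -1.03, SE 0.37, adjusted p = 0.0264; -1.11 after trend removal, adjusted p = 0.00291), although the groups overlapped. That call was lost without SKOV3_PAE replicate 3 or SKOV3/DDP_PAE replicate 1 or 2 (log2 -0.86 to -0.78, adjusted p of 0.0856 to 0.105), and without SKOV3/DDP_PAE replicate 3 the log2 value was -1.63.

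SLC40A1 (NCBI Gene 30061, chromosome 2, 189560590 to 189580811), which encodes ferroportin, the cell's iron exporter, was barely detected. It had 1, 0 and 4 counts in the SKOV3 libraries, 13, 11 and 14 in SKOV3_PAE, 0, 2 and 0 in SKOV3/DDP, and 0, 1 and 0 in SKOV3/DDP_PAE. As normalized, the SKOV3_PAE libraries were above the other 9, and the means were 0.143 CPM in SKOV3 and 0.684 CPM in SKOV3_PAE. After trend removal these means were 0.434 and 0.445 CPM, and SKOV3 replicate 3 (1.06 CPM) was above every SKOV3_PAE library. On library totals, without TMM factors or trend removal, SKOV3_PAE was 8.72 times SKOV3 (95% counting interval 3.43 to 28.4). It was 41.4 times SKOV3/DDP_PAE (7.00 to 1679). These intervals cover counting error only. Since SLC40A1 passed the filter on low counts only through SKOV3_PAE, no test is given for comparisons with that group. Between the untreated lines, at 5 and 2 counts in all, no difference was detectable at this depth (SKOV3 over SKOV3/DDP 2.22, interval 0.364 to 23.3).

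IREB2 (NCBI Gene 3658, chromosome 15, 78437431 to 78501453) encodes iron regulatory protein 2, which senses low iron. It was at 16.1, 5.62 and 9.07 CPM in SKOV3 and at 116, 111 and 126 CPM in SKOV3_PAE. SKOV3/DDP had 69.4, 48.5 and 61.3 CPM and SKOV3/DDP_PAE had 50.6, 55.2 and 101 CPM. As normalized, IREB2 rose with PAE in SKOV3 (log2 3.52, SE 0.36, adjusted p = 3.97e-07) and was higher in untreated SKOV3/DDP (log2 2.54, SE 0.35, adjusted p = 7.54e-06). Neither call held after trend removal (log2 0.41, adjusted p = 0.146, and -0.39, adjusted p = 0.139). IREB2 has 38.3% GC. Its log2 fold change with PAE in SKOV3/DDP was 0.21 (SE 0.33, adjusted p = 0.684), and -0.14 without SKOV3/DDP_PAE replicate 3. For the treated lines the groups did not overlap and IREB2 was at the threshold, with a log2 fold change of -0.77 (SE 0.33, adjusted p = 0.0575) and of -0.83 after trend removal (adjusted p = 0.00440). With all libraries of both groups kept, it passed under the other settings tried without trend removal, with an adjusted p of 0.00975 (no filter on low counts) to 0.0471 (10 or more counts in each library), and of 0.0399 with the replicate block. Without SKOV3 replicate 1 or 2, or SKOV3/DDP_PAE replicate 3, the adjusted p was 0.0102 to 0.0286 (log2 -1.15 to -0.77).

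Of the enzymes that load oxidizable fatty acids into phospholipids, ACSL4 was lower in SKOV3/DDP than in SKOV3 when both lines had PAE, and LPCAT3 was lower in SKOV3/DDP in both states. ACSL4 (NCBI Gene 2182, chromosome X, 109641335 to 109733325) activates arachidonic acid. It was at 27.7, 11.9 and 20.3 CPM in SKOV3 and at 364, 353 and 319 CPM in SKOV3_PAE. It was at 93.8, 74.8 and 77.6 CPM in SKOV3/DDP and at 43.9, 54.6 and 79.8 CPM in SKOV3/DDP_PAE. The SKOV3_PAE libraries were above the other 9 and the SKOV3 libraries below the other 9, while both SKOV3/DDP groups overlapped. In SKOV3 it rose with PAE by 4.11 on the log2 scale (SE 0.32, adjusted p = 2.73e-08), the largest rise of the 10 genes there as normalized, and by 0.99 after trend removal (adjusted p = 0.00106), when that of NCOA4 was larger (1.28). In SKOV3/DDP the log2 fold change was -0.47 (SE 0.28, adjusted p = 0.234), and -0.73 after trend removal (adjusted p = 0.0122). Among treated cells ACSL4 was 5.82-fold lower in SKOV3/DDP (log2 -2.54, SE 0.29, adjusted p = 3.97e-06; -2.61 after trend removal, adjusted p = 1.47e-07). Between the untreated lines the direction turned, from 2.04 as normalized (SE 0.29, adjusted p = 1.09e-05) to -0.89 after trend removal (adjusted p = 0.00136).

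LPCAT3 (NCBI Gene 10162, chromosome 12, 6976185 to 7018508) joins polyunsaturated fatty acids to lysophospholipids. It was at 49.8, 40.3 and 44.9 CPM in SKOV3 and at 11.2, 17.6 and 14.9 CPM in SKOV3_PAE. SKOV3/DDP had 11.5, 8.96 and 9.92 CPM and SKOV3/DDP_PAE had 5.40, 5.22 and 8.64 CPM. The treated libraries lay below the untreated ones in both lines. LPCAT3 fell with PAE in SKOV3 (log2 -1.63, SE 0.26, adjusted p = 3.57e-05; -0.96 after trend removal, adjusted p = 0.00324). In SKOV3/DDP the log2 fold change of -0.66 (SE 0.26) missed the threshold (adjusted p = 0.0747, and 0.0748 after trend removal), although it passed where only genes with 10 or more counts in each library were tested (adjusted p = 0.0421) and without SKOV3/DDP_PAE replicate 3 (log2 -0.89, adjusted p = 0.0282). It was lower in SKOV3/DDP than in SKOV3 both untreated (log2 -2.15, SE 0.26, adjusted p = 2.09e-06; -1.50 after trend removal, adjusted p = 5.73e-05) and with PAE (log2 -1.19, SE 0.26, adjusted p = 0.00133; -1.12, adjusted p = 0.000971). EMG1, a ribosome assembly gene, overlaps LPCAT3 on the other strand and had 235% of its mean CPM. EMG1 changed with PAE in SKOV3 by -1.24 on the log2 scale (adjusted p = 0.000454), and between the untreated lines by -1.24 (adjusted p = 0.000400). After trend removal these were -1.63 (adjusted p = 0.000678) and -1.71 (adjusted p = 0.000230). EMG1 was not called with PAE in SKOV3/DDP (log2 -0.49, adjusted p = 0.173) or between the treated lines (log2 -0.49, adjusted p = 0.117). The strand of counting is not given in the sources used here, so reads of the overlap cannot be told apart.

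As normalized, GPX4 and AIFM2, the members that remove or prevent lipid peroxides, were highest in untreated SKOV3. After trend removal GPX4 averaged 304 CPM there, 269 CPM in SKOV3_PAE, 447 CPM in SKOV3/DDP and 407 CPM in SKOV3/DDP_PAE. GPX4 (NCBI Gene 2879, chromosome 19, 1103994 to 1106779), the selenoenzyme that reduces lipid peroxides, was at 1538, 1637 and 1350 CPM in SKOV3 and at 147, 132 and 175 CPM in SKOV3_PAE. It was at 278, 300.1 and 301 CPM in SKOV3/DDP and at 243, 247 and 167 CPM in SKOV3/DDP_PAE. As normalized it was 9.98-fold lower with PAE in SKOV3 (log2 -3.32, SE 0.22, adjusted p = 1.41e-08) and 5.15-fold lower in untreated SKOV3/DDP (log2 -2.37, SE 0.21, adjusted p = 8.22e-08). Neither held after trend removal: the log2 fold changes were -0.18 (SE 0.21, adjusted p = 0.501) and 0.56 (SE 0.21, adjusted p = 0.0271). GPX4 has the highest GC content of the members, 62.5%. In SKOV3/DDP the treated libraries lay below the untreated ones, but the log2 fold change of -0.42 (SE 0.20) did not pass (adjusted p = 0.144). In treated cells GPX4 was 1.45-fold higher in SKOV3/DDP (log2 0.53, SE 0.20, adjusted p = 0.0383; 0.60 after trend removal, adjusted p = 0.0230), with overlapping groups. This call was lost on library size alone (adjusted p = 0.059), with the replicate block (0.0674), without a filter on low counts (0.119), with only the groups compared (0.110), with the 9 libraries other than untreated SKOV3 (0.0826), and without any 1 of SKOV3 replicate 3, SKOV3_PAE replicate 1 or 2, SKOV3/DDP replicate 1 or 3, or SKOV3/DDP_PAE replicate 1 or 2 (log2 0.43 to 0.53, adjusted p of 0.0550 to 0.135).

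AIFM2 (NCBI Gene 84883, chromosome 10, 70112271 to 70132825), the ubiquinone reductase FSP1, was at 272, 342 and 257 CPM in SKOV3 and at 56.9, 65.9 and 62.2 CPM in SKOV3_PAE. SKOV3/DDP had 52.5, 99.6 and 56.9 CPM and SKOV3/DDP_PAE had 105, 95.9 and 79.9 CPM. The untreated SKOV3 libraries were above the other 9. AIFM2 fell with PAE in SKOV3 (log2 -2.24, SE 0.25, adjusted p = 1.03e-06; -0.85 after trend removal, adjusted p = 0.00614) and was lower in untreated SKOV3/DDP (log2 -2.06, SE 0.25, adjusted p = 2.02e-06; -0.81, adjusted p = 0.00516). In SKOV3/DDP the log2 fold change with PAE was 0.43 (SE 0.24, adjusted p = 0.213), and 0.77 (adjusted p = 0.0203) without SKOV3/DDP replicate 2. In treated cells AIFM2 was 1.52-fold higher in SKOV3/DDP (log2 0.60, SE 0.24, adjusted p = 0.0483; 0.63 after trend removal, adjusted p = 0.0252). That call was lost without a filter on low counts (adjusted p = 0.0704), with 10 or more counts in each library (0.0535), with the 9 libraries other than untreated SKOV3 (0.0776), and without any 1 of SKOV3 replicate 1 or 3, any SKOV3_PAE replicate, SKOV3/DDP replicate 3, or SKOV3/DDP_PAE replicate 1 or 2 (log2 0.51 to 0.64, adjusted p of 0.0521 to 0.145). MACROH2A2, a histone gene that overlaps AIFM2 on the other strand, had 22.2% of its mean CPM. As normalized, MACROH2A2 also fell with PAE in SKOV3 (log2 -1.50, adjusted p = 7.37e-06) and was lower in untreated SKOV3/DDP (log2 -1.90, adjusted p = 5.73e-07). After trend removal the first was not called (log2 -0.34, adjusted p = 0.0958), and the second was (log2 -0.70, adjusted p = 0.00172). It was lower as well with PAE in SKOV3/DDP (log2 -1.38) and between the treated lines (log2 -1.78), where AIFM2 was not. Reads of this overlap cannot be told apart either.

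Compared per kilobase of gene length, FTL had the highest group mean in all 4 groups, followed by FTH1 and GPX4, and the order below them changed. In SKOV3, mean CPM per kilobase was 9532 for FTL, 4998 for FTH1, 1308 for GPX4 and 92.6 for AIFM2, and the other members were at 19.2 (LPCAT3) or lower. In SKOV3_PAE the order was FTL (2830), FTH1 (2262) and GPX4 (131), followed by ACSL4 (64.0), TFRC (51.1) and NCOA4 (41.9). FTL and FTH1 overlapped there in range on this scale, since 1 library had more FTH1 than FTL. In SKOV3/DDP, FTL was at 2545, FTH1 at 343 and GPX4 at 254 CPM per kilobase, and NCOA4 followed at 37.4. GPX4 and FTH1 overlapped in this group: GPX4 was above FTH1 in replicates 1 (241 and 233) and 3 (261 and 195), and the order of their means rested on replicate 2 (260.2 and 599.9). With PAE in that line FTL was at 1729, FTH1 at 452, GPX4 at 189.8 and NCOA4 at 48.3. SLC40A1 was the lowest in all 4 groups, at 0.189 CPM per kilobase or less.

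The other iron and ferroptosis genes were a list of 55 in 7 groups, of which 50 were tested. In SKOV3, 39 were called with PAE, or 78% of those tested, beside 75.3% of all genes (22 higher and 17 lower, median log2 fold change 0.54, beside a median of 0.48 over all genes). After trend removal 27 were called, beside 50.3% of all genes, and the balance turned to 11 higher and 16 lower (median -0.04, beside 0.22 over all genes). On library size alone 35 were called, 29 higher and 6 lower, beside 12892 of 17133 genes, 9058 higher and 3834 lower. The named genes of largest change were SLC7A11, the cystine importer (log2 4.71, SE 0.88), GCLC, the catalytic subunit of glutathione synthesis (3.57, SE 0.67), and SLC39A8, a metal importer (3.46, SE 0.31). On the other side were POR, a reductase that feeds lipid oxidation (-2.66, SE 0.23), TFR2, the second transferrin receptor (-2.53, SE 0.23), and GSS, glutathione synthetase (-2.21, SE 0.21). All 6 had adjusted p of 0.000183 or less. After trend removal GCLC (1.66), SLC39A8 (1.65) and GSS (-1.22) were still called, with adjusted p of 0.0377, 0.000131 and 0.000117, whereas SLC7A11 (1.26), POR (-0.28) and TFR2 (-0.29) were not.

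In SKOV3/DDP, 16 of the 50 were called with PAE, or 32%, beside 26.4% of all genes (5 higher beside 11.8%, and 11 lower beside 14.7%). TF (14 and 194 counts without and with PAE) and ALOX15B (193 and 3) passed the filter on low counts only through the higher group. Their calls are in these counts but are not support, here and in the other comparisons with those groups. The median log2 fold change was 0.02, beside 0.00 over all genes. After trend removal 19 were called, beside 32.2% of all genes (8 higher beside 15.6%, and 11 lower beside 16.6%). On library size alone 17 were called (8 higher and 9 lower), beside 4802 of 17133 genes (2889 higher and 1913 lower). SLC3A2, the partner chain of the cystine importer, rose from 175, 1018 and 213 CPM to 2013, 1580 and 1689 CPM (log2 1.91, SE 0.50, adjusted p = 0.0123). Its rise was 3.18 on the log2 scale when SKOV3/DDP replicate 2, the library at 1018 CPM, was left out. GCH1, which makes the antioxidant tetrahydrobiopterin, rose from 27.3, 47.3 and 23.8 CPM to 57.9, 66.9 and 69.4 CPM (log2 0.98, SE 0.25, adjusted p = 0.0116), a call lost without SKOV3/DDP replicate 1 (log2 0.90, adjusted p = 0.0514) or 3 (log2 0.82, adjusted p = 0.0547). POR rose from 121, 191 and 117 CPM to 319, 238 and 284 CPM (log2 0.97, SE 0.21, adjusted p = 0.00492). The treated libraries of these 3 genes were above all untreated ones.

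STEAP3, the endosomal reductase that frees iron taken up by TFRC, fell from 15.5, 31.4 and 13.6 CPM to 3.38, 2.30 and 4.68 CPM with PAE in SKOV3/DDP (log2 -2.54, SE 0.35, adjusted p = 0.00023). NQO1, a quinone reductase, fell from 1760, 3136 and 1856 CPM to 737, 769 and 656 CPM (log2 -1.64, SE 0.25, adjusted p = 0.000508). COQ2, an enzyme of ubiquinone synthesis, fell from 11.8, 13.6 and 11.1 CPM to 6.08, 5.92 and 4.79 CPM (log2 -1.12, SE 0.26, adjusted p = 0.00626). All 6 genes named for SKOV3/DDP kept their call after trend removal. SLC7A11 was not called there (log2 0.27, SE 0.74, adjusted p = 0.841). Its libraries were at 57.0, 902 and 70.9 CPM without PAE and at 304, 404 and 530 CPM with it. SKOV3/DDP replicate 2 was thus the highest of its group for SLC7A11, SLC3A2, NQO1, FTL, FTH1 and AIFM2.

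**Figure D5:**
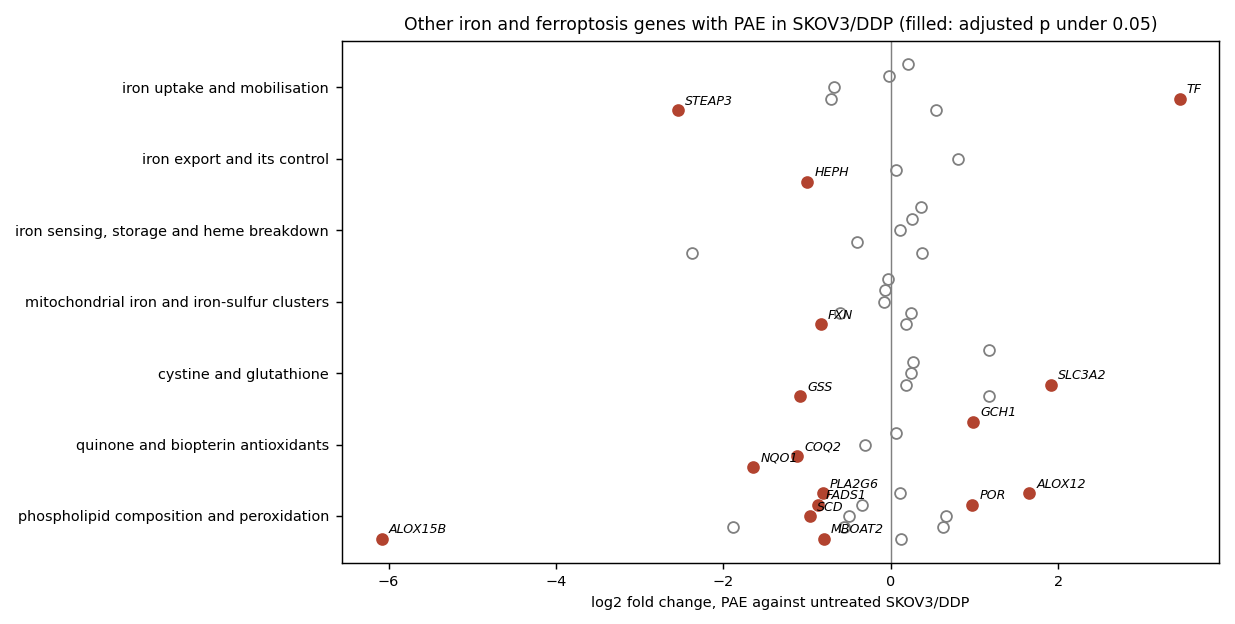
Log2 fold change with PAE in SKOV3/DDP for the 50 tested genes of the iron and ferroptosis list, by group. Filled points passed an adjusted p under 0.05 and are named. The 5 that rose and 11 that fell include TF and ALOX15B, which stayed under 10 CPM in every library. Both passed the filter on low counts only through their higher group.

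Between the untreated lines, 37 of the 50 list genes were called, or 74%, beside 81.8% of all genes (20 higher and 17 lower in SKOV3/DDP). On library size alone 26 were higher and 12 lower, beside 9038 and 4948 of 17133 genes. After trend removal 38 were called, beside 70.2% of all genes, and the balance turned to 16 higher and 22 lower. HEPH, a ferroxidase that works with ferroportin, had 0 counts in all SKOV3 and SKOV3_PAE libraries and 5257 and 3114 counts in the SKOV3/DDP groups without and with PAE. Against a limit of 3 counts over the group, it was at least 1973-fold higher in untreated SKOV3/DDP and at least 952-fold higher with PAE. SLC7A11 (log2 5.43, SE 0.91; 2.24 after trend removal) and GCLC (log2 4.75, SE 0.70; 2.85) were also higher in untreated SKOV3/DDP. Without SKOV3/DDP replicate 2 the value for SLC7A11 was 3.02 on the log2 scale. GCLC was at 46.7, 300 and 45.3 CPM in SKOV3/DDP. With single libraries left out, its log2 value ranged from 3.25 to 5.32 and stayed called. ELOVL5, an elongase of polyunsaturated fatty acids, had 827 counts in SKOV3 and 1 in SKOV3/DDP, a ratio of 735 (95% counting interval 131 to 29050). TFR2 (log2 -5.25, SE 0.26; -3.29 after trend removal) and FADS2, a fatty acid desaturase (log2 -4.34, SE 0.30; -3.00), were lower. SLC7A11, GCLC, TFR2 and FADS2 kept their direction and call after trend removal. HEPH and HEPHL1 (0 counts in untreated SKOV3 and 58 in untreated SKOV3/DDP) passed the filter on low counts only through the SKOV3/DDP groups. ELOVL5 passed it only through the SKOV3 groups. Calls of HEPH, HEPHL1 and ELOVL5 between the lines are in the counts of calls but are not support.

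Between the treated lines 30 of the 50 were called, or 60%, beside 54.5% of all genes (11 higher in SKOV3/DDP, beside 27.5%, and 19 lower, beside 27.1%). POR (log2 2.39, SE 0.22, adjusted p = 4.43e-07) and CHAC1, which degrades glutathione (log2 2.18, SE 0.77, adjusted p = 0.0251), were higher. The CHAC1 call was lost without SKOV3_PAE replicate 2 or 3 or SKOV3/DDP_PAE replicate 1 (log2 1.87 to 2.03, adjusted p of 0.0630 to 0.0891). ELOVL5 had 6183 counts in SKOV3_PAE and 0 in SKOV3/DDP_PAE, at least 2247-fold lower. SLC39A8 (log2 -6.32, SE 0.35, adjusted p = 2.78e-09) and TFR2 (log2 -3.43, SE 0.25, adjusted p = 3.71e-08) were lower. The part of the intestinal markers seen in SKOV3/DDP in these differences between the lines was not tested.

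The PAE change differed between the lines for 9 of the 9 members other than SLC40A1 as normalized, beside 62.9% of all genes (5 higher in SKOV3/DDP, beside 25.5%, and 4 lower, beside 37.4%). After trend removal it differed for 3, beside 42.3% (1 higher beside 18.9%, and 2 lower beside 23.4%). Those 3 were NCOA4 and ACSL4, whose change was lower in SKOV3/DDP than in SKOV3 (log2 difference -1.0, adjusted p = 0.0181, and -1.73, adjusted p = 0.000277), and AIFM2, whose change was higher (1.45, adjusted p = 0.00237). For TFRC the difference was -1.90 (adjusted p = 0.00483) as normalized and 0.57 (adjusted p = 0.253) after trend removal. Among the other list genes, 35 of 50 differed, or 70% (14 higher and 21 lower), and 25 after trend removal (13 higher and 12 lower). The shares of all genes are those given above. On library size alone 9 list genes were higher and 30 lower, beside 3088 and 7808 of 17133 genes. The named ones were POR (log2 3.63), SLC3A2 (3.46) and CHAC1 (3.17), whose change was higher in SKOV3/DDP, and SLC7A11 (-4.45), MBOAT2 (-3.77) and CYBRD1 (-3.34), whose change was lower. Of these, POR (1.53), MBOAT2 (-0.74) and CYBRD1 (-0.91) were still called after trend removal, whereas SLC3A2, CHAC1 and SLC7A11 were not. Leaving out SKOV3/DDP replicate 2 changed the log2 differences to 5.29 for CHAC1 and -2.03 for SLC7A11, both still called.

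The protein-coding genes whose log2 CPM over the 12 libraries ran closest to that of FTH1 were ISL2, GATA2 and CSRP2, with root-mean-square differences of 0.417, 0.467 and 0.468 after each gene was centred on its mean. Closest to TFRC were IL1RAP (0.328), MTRR (0.333) and CYLD (0.340), and closest to GPX4 were MRPL14 (0.150), FAAP20 (0.159) and UQCR11 (0.188). The neighbours of TFRC had 39.7% to 42.2% GC, beside 41.5% for TFRC, and those of GPX4 53.7% to 61.2%, beside 62.5%. These values are descriptions over 9656 genes that share the same libraries.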

How the data were processed

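The files deposited by the authors hold raw counts, 1 whole number per gene in each of the 12 libraries. The submitters' processing notes name HISAT2 2.0.5, StringTie 1.3.3b, DESeq2 and edgeR. The counting program, the strand and the annotation release are not given in the sources used here. Messenger RNA had been captured with poly-T beads and libraries made with the NEBNext Ultra kit, which does not mark strand. The files list 47219 loci. The 869 without a gene name held 0.126% to 0.678% of counts and were left out. No genome build is named by the labels. The coordinates of the 10 members overlap those of RefSeq GRCh38.p14, with at least 1 end equal for 9 of them.

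Counts of all 12 libraries were fitted together in R 4.3.3 with edgeR 4.0.16 (filterByExpr, TMM, quasi-likelihood test, two-sided, Benjamini-Hochberg adjustment at 0.05 over 17133 genes). Standard errors were derived from the fold change and its F statistic. The trend on GC content and length was fitted per library with splines of 5 degrees of freedom, using genes whose mean log2 CPM reached 2, and passed as offsets. GC content came from the longest GENCODE 29 transcript and was available for 91.5% of the genes tested. Genes named from the list were up to 3 of each sign in each comparison that passed the test and averaged 10 CPM or more in their higher group. Pattern neighbours were sought for FTH1, TFRC and GPX4 with a pseudocount of 0.5. SLC7A11 in SKOV3/DDP, TF, ALOX15B, EMG1 and MACROH2A2 were named after their values were seen. The members and lists were chosen with earlier results of these data known. The alternatives tried were library size alone, DESeq2 1.42.0 with its own size factors, no filter, or 10 or more counts in each library, a replicate block, only the groups compared, ferritin pseudogene counts added, and each library left out. Added after seeing the data was a fit of the 9 libraries without untreated SKOV3. Deviations of same-numbered libraries from their group means correlated at -0.170 to 0.119, and the numbers were taken not to pair libraries. Within a group, chi-square per degree of freedom between libraries was 16.6 to 101, so none was taken for a copy of another. The tests were tested on simulated data.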

Additional observations from a re-analysis of the deposited data

Results flagged for a closer look

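For 9 of the 10 genes the test of the difference itself found that the change with PAE differed between the lines, beside 62.9% of all genes tested, and after trend removal for 3, beside 42.3%. The differences, as the log2 change in SKOV3/DDP minus that in SKOV3, were 1.19 for FTL (SE 0.43), 1.54 for FTH1 (SE 0.56), -3.03 for NCOA4 (SE 0.43), -1.90 for TFRC (SE 0.52), -3.32 for IREB2 (SE 0.48), -4.58 for ACSL4 (SE 0.41), 0.97 for LPCAT3 (SE 0.36), 2.90 for GPX4 (SE 0.29) and 2.66 for AIFM2 (SE 0.35). For each, the adjusted p of the quasi-likelihood test in edgeR was 0.0299 or less. Each of these differences uses the untreated SKOV3 libraries. After removal of the trend on GC content and length, the differences were -1.05 for FTL, 1.00 for FTH1, 0.57 for TFRC, -0.45 for IREB2, 0.38 for LPCAT3 and 0.04 for GPX4, none of them past the threshold, and those of NCOA4, ACSL4 and AIFM2 passed. On library size alone the calls of FTL (0.52, adjusted p = 0.279), FTH1 (0.88, adjusted p = 0.151) and LPCAT3 (0.24, adjusted p = 0.622) were lost. The call of FTL was also lost without SKOV3/DDP replicate 1 (log2 1.03, adjusted p = 0.0546). That of FTH1 was lost without any 1 of SKOV3 replicate 3 or SKOV3/DDP replicate 1 or 3 (log2 1.29 to 1.47, adjusted p of 0.0531 to 0.0549). That of LPCAT3 was lost without a filter on low counts (adjusted p = 0.0767) and without any 1 of SKOV3 replicate 1 or 3, SKOV3_PAE replicate 1, SKOV3/DDP replicate 2 or 3, or SKOV3/DDP_PAE replicate 3 (log2 0.73 to 0.97, adjusted p of 0.0536 to 0.0759).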

How the results depend on the processing

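Counts of the 10 genes in this section include SLC40A1, which passed the filter only through SKOV3_PAE. Its calls in comparisons with that group are not support. Without SLC40A1, 9, 1, 9, 6 and 9 members were called in the 5 comparisons as normalized, and 5, 2, 7, 7 and 3 after trend removal. With it, the number called with PAE in SKOV3 went from 10 to 5 after removal of the GC and length trend. It was also 5 with a replicate block as well. The number of all genes went from 12895 to 7889 and 7453. With PAE in SKOV3/DDP, 1 gene of the 10 was called, beside 26.4% of all genes, and 2 after trend removal, beside 32.2%. With at least 10 counts in every library 2 were called, and 3 with trend removal and the block. The shares of all genes are not given for these last settings. For the difference between the lines, 9 became 3 and 3, and 10778 of all genes became 6633 and 6235. With at least 10 counts in every library, fewer genes were tested, and the calls over all genes fell from 14010 to 8998 between the untreated lines and from 9346 to 5486 between the treated ones. The replicate block alone gave 9, 1, 9, 7 and 9 of the 10 genes in the 5 comparisons, beside 12701, 3997, 13865, 8959 and 10527 of all genes. These counts were within 1.5 times the values without it. SLC40A1 was tested only because SKOV3_PAE passed the filter. Of the other members, the block ended the call of GPX4 between the treated lines and made that of IREB2 there. DESeq2, library size alone, no filter and only the groups compared left every count of calls within 1.5 times.

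Directions turned for these genes, with the value after trend removal and then with the block as well. With PAE in SKOV3 they were FTL (0.69 and 0.68) and SLC40A1 (-0.035, with trend removal alone). With PAE in SKOV3/DDP it was IREB2 (-0.038 and -0.032). With single libraries left out, IREB2 ranged there from -0.14, without SKOV3/DDP_PAE replicate 3, to 0.42, and SLC40A1 from -2.63 to 1.69, without SKOV3/DDP replicate 2. Between the untreated lines they were FTL (0.50 and 0.54), TFRC (-1.68 and -1.67), IREB2 (-0.39 and -0.38), ACSL4 (-0.89 and -0.88) and GPX4 (0.56 and 0.56). Between the treated lines NCOA4 ranged from -0.11, without SKOV3/DDP_PAE replicate 3, to 0.36. For the difference between the lines they were FTL (-1.05 and -1.06) and TFRC (0.57 and 0.53). The cause was not tested.

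With each library left out in turn, the calls with PAE in SKOV3/DDP were 1 to 3 of the 10 genes, 10 to 21 of the list and 2815 to 4998 of all genes, the lowest 2 without SKOV3/DDP replicate 1 or 3. Between the treated lines 4 to 8 of the 10 genes were called, beside 8401 to 9944 of all genes, and 4 without SKOV3/DDP_PAE replicate 1 or 2. Scaling by library size alone moved the median log2 fold change over all genes from 0.48 to 1.36 with PAE in SKOV3, from 0.00 to 0.16 in SKOV3/DDP, from 0.54 to 1.23 between the untreated lines and from -0.62 to -1.30 for the difference, with no change of direction for a member. The share of calls that were higher went from 56.5% to 70.3% in SKOV3, from 44.5% to 60.2% in SKOV3/DDP and from 40.6% to 28.3% for the difference. SLC40A1 was limited by its few counts. CP, HAMP, FTMT, ALOX5 and ALOX15 of the list did not pass the filter on low counts and were not tested. FTMT and ALOX5 had 0 counts in every library. HEPH and ELOVL5, at or near 0 counts in some groups, are given as bounds or counting intervals.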
